A study of Mus musculus with 2 samples.

Results

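The cells described here are 812 mouse hair follicle keratinocytes that carried transcripts of at least 3 of the 5 genes Wfdc18, Pthlh, Dclk1, Sytl2 and Bpifc. They were taken from 2 single-cell RNA libraries made with the 10x Genomics 3′ v3 chemistry, replicates 1 and 2 of a single group. Every mouse was wild type, of strain C57BL/6;CD1, and the skin was taken at postnatal day 32, in mid-anagen, when follicles grow a new hair. The cells had been sorted by flow cytometry for CD34, a surface protein of bulge stem cells, and for H2BGFP, a histone-fused green fluorescent protein driven by the promoter of keratin 14, and the labels do not give the gates. No second genotype, treatment or time belongs to the series. Nothing in the labels says whether the replicates came from separate animals, so their spread may be technical.

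Members were chosen by their transcripts. Barcodes needed 1000 or more genes and no more than 10% mitochondrial UMIs to be kept, and a kept barcode with at least 2 UMIs of Krt5 and Krt14 together counted as a keratinocyte. A UMI, or unique molecular identifier, stands for 1 captured RNA molecule. A keratinocyte was a member with at least 3 of the 5 marker genes detected and at most 1 of the 7 mitotic genes Ube2c, Cdc20, Ccnb1, Cenpf, Hmmr, Plk1 and Aspm. Of 11672 barcodes, 6959 were kept and 6828 were keratinocytes. Replicate 1 held 610 members among 3841 keratinocytes, a share of 15.9% (exact 95% Clopper-Pearson interval 14.7 to 17.1). Replicate 2 held 202 among 2987, or 6.76% (5.89 to 7.72). The mean share was 11.3% ± 6.45 (SD, n = 2 libraries). The intervals do not overlap, but they cover counting error only, and the libraries belong to the same group. With every cell thinned to 5000 UMIs before the rule was applied, the shares were 10.2% (372 of 3637) and 4.44% (124 of 2793).

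The outer root sheath is the outermost epithelial layer of the hair follicle and is continuous with the basal layer of the epidermis. Its basal cells sit on a basement membrane, held there by integrins and hemidesmosomes, and express keratins 5 and 14, with keratin 15 in the bulge. Its suprabasal cells have left that membrane and are tied to their neighbours by desmosomes, and the companion layer between outer and inner sheath makes keratins 6 and 75. PTHrP, the peptide encoded by Pthlh, is secreted by follicle epithelium and acts through a receptor found mainly on dermal cells.

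The marker genes encode unrelated proteins. Wfdc18 is a small secreted protein with a whey acidic protein fold, and its gene lies on chromosome 11 from 83709015 to 83711348, plus strand, of the mouse build GRCm38. Pthlh lies on chromosome 6 from 147252101 to 147264183, minus strand. Dclk1, a microtubule-binding kinase of the doublecortin family, spans chromosome 3 from 55242364 to 55539068 on the plus strand. Sytl2, a synaptotagmin-like effector of the vesicle GTPase RAB27, lies on chromosome 7 from 90302252 to 90410719, plus strand. Bpifc, of the BPI-fold family of lipid-binding proteins, lies on chromosome 10 from 85959340 to 86011895, minus strand. All are protein-coding genes.

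The DNA just upstream of 2 of these genes is shown because these were the marker genes whose upstream stretch held a TATA box or an AP-1 motif. Both are RefSeq promoter sequences (GRCm38.p6), read 5′ to 3′ on the gene's strand and ended before the first annotated transcribed base, with the motif in capitals. The stretch of Wfdc18 is chr11:83708754-83709003 on the plus strand, and its TATA box starts 31 bases before the end. The stretch of Bpifc is chr10:86011896-86012110 on the minus strand, and its AP-1 motif starts 16 bases before the end.
Wfdc18: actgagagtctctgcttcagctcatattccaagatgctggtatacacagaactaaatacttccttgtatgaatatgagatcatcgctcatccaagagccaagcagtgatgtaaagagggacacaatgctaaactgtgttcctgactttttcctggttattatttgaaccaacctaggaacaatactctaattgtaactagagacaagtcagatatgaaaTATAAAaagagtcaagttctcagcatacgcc
Bpifc: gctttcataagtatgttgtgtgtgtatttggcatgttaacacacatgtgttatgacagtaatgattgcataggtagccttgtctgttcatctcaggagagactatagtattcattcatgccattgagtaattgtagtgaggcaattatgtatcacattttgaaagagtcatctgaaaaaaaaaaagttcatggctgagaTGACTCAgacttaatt
The table held 4 of the 5 marker genes, all but Sytl2. On either strand, TATAAA occurred in 13% of all 27025 promoters in the table and TGANTCA in 6.87%. Among the 91 promoters found for the genes higher in the members (counted below), TATAAA occurred in 6 (6.59%) and TGANTCA in 4 (4.40%), beside 6.00% and 3.65% of the promoters of all measured genes. Both shares lay near the background. A match describes these letters and is not evidence of binding.

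Pthlh was the marker gene found in most members, and its level is given here, like those of the other marker genes, as a description of the choice. Its level in the summed members was 1497 counts per 1000000 UMIs (CPM) in replicate 1 and 1100 in replicate 2, beside 315 and 116 in the other keratinocytes. Pthlh was detected in 96.1% and 95% of members and in 43.7% and 25.4% of the others, so the gene alone does not mark these cells. Wfdc18 stood at 327 and 321 CPM in members and at 59.3 and 20.2 in the others. It was detected in 75.2% and 77.7% of members, and in 15.5% and 8.04% of the other keratinocytes. No UMI of Wfdc18 was found in the 77 and 54 kept cells that were not keratinocytes. There a count of 0 allows shares of up to 3.9% and 5.56%, taken as 3 divided by the number of cells. The exact 95% intervals reach 4.68% and 6.6%. The median depth of these cells was 10636 and 11955 UMIs.

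Of the remaining markers, Dclk1 and Sytl2 were less specific to keratinocytes than Pthlh, which was detected in 10.4% and 9.26% of the non-keratinocytes. Dclk1 was detected in 69.2% and 74.8% of members and 12.8% and 6.61% of other keratinocytes, but also in 42.9% and 35.2% of the non-keratinocytes. Sytl2 followed the same order, with 54.8% and 50.5%, 7.77% and 5.46%, and 24.7% and 14.8%. Bpifc was detected in 68.2% and 60.9% of members, 12.9% and 4.81% of other keratinocytes and 3.9% and 0% of non-keratinocytes, where a count of 0 in 54 cells allows up to 5.56%. All 5 genes were found together in 87 members of replicate 1 (14.3%) and 30 of replicate 2 (14.9%). The most frequent set of exactly 3 was Wfdc18, Pthlh and Dclk1 in both libraries, in 83 and 34 members.

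Members and other keratinocytes were sequenced to a like depth. The libraries held 52344178 and 38678103 UMIs. Median UMIs per cell were 10299.5 and 9584 in members and 9895 and 9791 in the others, and the median mitochondrial shares were 6.26% and 4.57% against 6.04% and 4.40%. The libraries shared 11 barcodes, and no barcode was a member in both. The 3231 and 2785 other keratinocytes included 995 and 755 cells with at least 2 mitotic genes and 26 and 23 cells with at least 3 detected markers of fibroblasts, endothelium, immune cells, melanocytes or vascular muscle. Only 1 member of replicate 1 and none of replicate 2 met that last criterion. A narrower reference, chosen after seeing the data, therefore left such cells out, leaving 2217 and 2016 non-mitotic keratinocytes.

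Comparing members with the remaining keratinocytes shows which other transcripts accompany the marker genes. Levels are CPM of UMIs summed within a library, and ratios are on the log2(CPM + 1) scale, which understates the ratio of low genes. The comparison has no p-value, because the members were selected on transcripts of the same cells and because 2 libraries allow no two-sided exact paired permutation p below 0.5. A gene is called higher or lower where it differed at least 2-fold in the same direction in each library. Among 7195 genes with a mean level of at least 10 CPM in each library, the 14 genes of the rule left out, 123 were higher (1.71%) and 253 lower (3.52%). Against the narrower reference 158 of 7130 were higher (2.22%) and 215 lower (3.02%), and these included 117 of the 123 and 165 of the 253. The median log2 ratio of all measured genes was -0.05. Of the 123 higher genes, 105 had the larger ratio in replicate 2, with medians of 1.29 and 1.61.

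Outside the marker genes, the most strongly enriched transcript was Rnf223, which encodes a RING-finger protein. Its level was 43.7 and 47.9 CPM in members and 6.84 and 2.80 in the others, a log2 ratio of 3.1 ± 0.83 (SD, n = 2 libraries). It was found in 27.4% and 31.7% of members, 5.66% and 2.76% of the others and none of the non-keratinocytes, where a count of 0 allows up to 3.9% and 5.56%. Rhov, an atypical small GTPase, stood at 118 and 134 CPM in members against 36.5 and 13.6 (2.44 ± 1.09). Tcim, a small regulator of transcription, was at 209 and 152 against 45.2 and 22.9 (2.43 ± 0.35). For these genes both member values lay above both values of the others, which largely follows from the 2-fold call and the ranking. Rnf223, under 10 CPM in the others, reached the level minimum through the members. Rhov was present in 60.8% and 61.9% of member cells and in 20.6% and 9.37% of the others.

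Further genes followed in the ranking. Sema6a, a transmembrane semaphorin, was at 40.2 and 29.3 CPM in members and 7.51 and 4.54 in the others (2.36 ± 0.12). Kalrn, which encodes kalirin, was at 165 and 158 against 50.3 and 23.6 (2.20 ± 0.71). Myof, the membrane-repair protein myoferlin, was at 101 and 133 against 26.4 and 24.4 (2.15 ± 0.35). The groups did not overlap for any of them, which largely follows from the ranking. Sema6a, under 10 CPM in the others, also reached the level minimum through the members. Zfp750, a zinc-finger factor of epidermal differentiation, was at 107 and 63.6 against 34.7 and 9.11 (2.14 ± 0.77). The other genes among the 15 with the largest mean ratios were C2cd4b, Lurap1l, the tweety-family channel gene Ttyh1, the carboxypeptidase-like Cpxm2, the calcium-binding S100b, the transporter Slc22a23, Rec114, known from meiotic recombination, and the membrane mucin Muc15, with mean log2 ratios from 2.21 to 2.63.

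Desmosomal transcripts were higher in the members as a group. Of 10 measured desmosome genes 6 were at least 2-fold higher in both libraries and none was lower, and the median log2 ratio of the list was 1.26. Over all measured genes 1.71% were higher. Dsp, the plakin desmoplakin that links desmosomes to keratin filaments, stood at 832 and 811 CPM in members and 323 and 315 in the others, a ratio of 2.58 in each library. The desmosomal cadherin Dsg3 was at 97.4 and 112 against 32.1 and 47.2 (log2 ratio 1.40 ± 0.24). Ppl, the plakin periplakin, was at 91.2 and 98.0 against 37.8 and 29.5 (1.47 ± 0.32). Dsc3, Pkp1 and Dsg1a completed the 6, with mean log2 ratios of 1.15, 1.38 and 1.40. Dsg1a has close gene copies, so the assignment of its reads is uncertain. Of the members of the list that were not called, Jup, plakoglobin, had 437 and 375 CPM against 222 and 156, with ratios of 1.97 and 2.40. Dsg2 had 46.8 and 65.0 against 54.0 and 47.0, and its values overlapped.

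**Figure D1:**
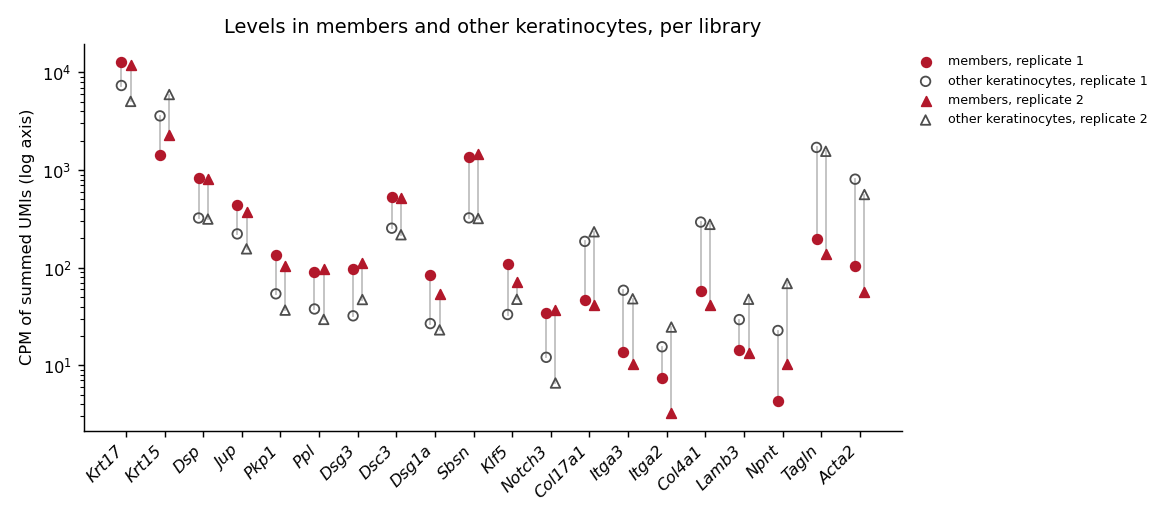
CPM (log axis) of 20 genes in summed members (red) and summed other keratinocytes (open), circles for replicate 1 and triangles for replicate 2, each pair joined by a line. Desmosome genes, Sbsn and Notch3 lie higher in members in both libraries (Dsp 832 and 811 against 323 and 315), and Krt15, the integrin and basement membrane genes, Tagln and Acta2 lie lower.

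Desmosome content was also compared cell by cell. Summed over the 14 listed desmosome genes, the median member had 44.4 and 42.4 UMIs per 10000 of its UMIs, beside 19.4 and 19.8 in the other keratinocytes. The 10th percentile of members, 26.8 and 26.3, lay above the median of the others in each library. The tight junction gene Cldn1 was higher in both libraries as well, at 534 and 334 CPM against 179 and 109. It was the only gene called higher of 8 measured gap and tight junction genes, beside 1.71% of all measured genes. Gja1, which encodes connexin 43, had 3644 and 3023 CPM against 2129 and 1289 and was not called.

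The list of epidermal differentiation genes did not move as a block. Of its 7 measured genes 3 were higher, beside 1.71% of all measured genes: Sbsn, Grhl1 and Dsg1a, the last shared with the desmosome list. Sbsn, the secreted protein suprabasin, stood at 1349 and 1463 CPM in members against 324 and 319 (log2 ratio 2.13 ± 0.10), and it was detected in 97.5% and 98.5% of members against 56.9% and 58.1% of the others. Grhl1, a Grainyhead-like transcription factor that acts on desmosomal cadherin genes, was at 50.1 and 40.4 against 20.9 and 12.0. Lypd3 had 766 and 618 CPM against 404 and 195 and was not called. The keratins of the epidermal suprabasal layers were not called higher: Krt10 had 29.5 and 29.3 CPM in members and 45.6 and 45.1 in the others. Krt1 had 1 UMI over 610 members and none over 202, where a count of 0 allows up to 1.49% of cells with a UMI, and 9 and 127 UMIs in the others. Krtdap, a secreted product of differentiating epidermis, was at 7.66 and 1.86 CPM against 13.8 and 56.4, with 11 and 2 of the member cells carrying it.

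The label of these cells as suprabasal-like root sheath cells was set beside the marker lists fixed for the study. Among 9 measured outer root sheath genes none was called higher and 2 were lower, and the list's median log2 ratio was 0.70. The shares over all measured genes were 1.71% higher and 3.52% lower. Krt17 stood at 12922 and 11832 CPM against 7343 and 5049, Sox9, a transcription factor of the outer root sheath, at 1262 and 889 against 639 and 344, with mean log2 ratios of 1.02 and 1.17. In both cases the member values lay above all values of the others, and the ratio in replicate 1 stayed under 2-fold. Krt17 and Sox9 are named for the size of their ratios. The 2 lower genes were the glutamate transporter gene Slc1a3 (39.5 and 45.5 against 133 and 106) and Ctnnal1, an alpha-catenin relative (7.10 and 9.76 against 35.7 and 59.5). Krt14, part of the rule, had 8055 and 7989 CPM in members against 3633 and 3479. The levels of the desmosome genes and Sbsn go with the suprabasal part of the name, but are not particular to the members. Sbsn, Dsp and the desmosome sum per cell were also above the other keratinocytes in cells with the outer bulge genes Krt24 and Grem1, given below. Those cells were few in replicate 1. Of the hemidesmosome and basement membrane genes given below, 8 of 19 measured were lower, which goes with the name too. The hemidesmosome genes Itga6, Itgb4 and Plec were not called. Krt14, a keratin of basal cells, was higher in members, which goes against that part of the name. The levels of Krt1, Krt10 and Krtdap, genes of differentiating epidermis, go against a suprabasal epidermal reading of the name. Position in the follicle was not measured. The cells are therefore called by their marker genes here.

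Of the companion layer keratins, Krt17 was found in every member, but also in 99.7% and 98.5% of the other keratinocytes. Krt6a and Krt75 were found in a minority of members. None of the 4 measured companion genes was called, and their median log2 ratio was 1.0. Krt6a had 180 and 75.3 CPM in members against 46.9 and 40.3, and it was detected in 29.3% and 26.2% of them against 13.6% and 14.6% of the others. Krt6a and Krt6b are near-identical copies, so reads between them are uncertain. Krt16 was at 148 and 64.1 CPM against 71.1 and 35.9. Krt75 had 94.4 and 54.4 CPM against 47.2 and 27.4, but 4 cells held 480 of its 678 UMIs in replicate 1 and 60 of 117 in replicate 2. Krt75 was detected in 15.9% and 19.8% of members, beside 15.1% and 14.7% of the others.

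Markers of fibroblasts, endothelial cells, immune cells and melanocytes were low in the members. The 6 fibroblast genes summed to 7.2 and 5.6 CPM in members and to 245.5 and 261.9 in the others. The endothelial, immune and melanocyte lists had no measured gene, and in members they summed to 12.2 and 2.8, 2.5 and 5.6, and 7.7 and 1.4 CPM. The sebaceous gland list, with 2 measured genes and none called, summed to 753.8 and 789.3 CPM in members and 410.1 and 245.3 in the others. The upper follicle list summed to 1017.7 and 697.3 CPM in members and 671.4 and 764.5 in the others. Merkel cell genes summed to 64.6 and 50.6 CPM in members and 56.0 and 28.6 in the others, and genes of the hair matrix and shaft to 95.9 and 65.5 against 114.7 and 83.5. The sebaceous and Merkel sums were thus higher in members of both libraries, the upper follicle sum in replicate 1, and their part in the results was not tested. The inner root sheath list summed to 853 CPM in members of replicate 1 and 89.7 in replicate 2, against 191 and 127 in the others. Of the 5224 UMIs of Krt25, Krt27, Krt71 and Tchh in replicate 1 members, 5149 lay in 1 cell with 29755 UMIs, and the next cell had 7. In replicate 2 members the same genes had 26 UMIs in all. With every cell of at least 10 such UMIs left out, 119 genes were higher and 254 lower.

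Transcripts of the basement membrane and its receptors were lower. Of 19 measured genes of hemidesmosome and basement membrane 8 were at least 2-fold lower in both libraries, none was higher, and the median log2 ratio was -1.07. Against the narrower reference 12 of 19 were lower. All measured genes had shares of 3.52% lower in the main comparison and 3.02% against the narrower reference. Col17a1, the transmembrane collagen of hemidesmosomes, stood at 47.0 and 41.3 CPM in members and 186 and 233 in the others, 3.95 and 5.64 times lower. Itga3, the alpha 3 integrin subunit that binds laminin, was at 13.6 and 10.2 against 58.7 and 48.1 (log2 ratio -2.08 ± 0.07). Both genes were lower in members in each library by more than the difference between libraries, though both are genes called at least 2-fold lower.

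Col4a1 and Col4a2 encode chains of collagen IV, the network collagen of basement membranes. Col4a1 stood at 58.3 and 41.3 CPM in members against 293 and 278 (-2.51 ± 0.29), and Col4a2 at 30.3 and 27.4 against 139 and 156. Npnt, the bulge-secreted integrin ligand nephronectin, was at 4.32 and 10.2 against 22.7 and 68.9. Itgb1, Lama5 and Lamc1 were the remaining lower genes, 2.13 to 2.35 times lower. Not all of the apparatus moved. Itga6 had 118 and 101 CPM against 138 and 132, Itgb4 60.6 and 42.7 against 70.2 and 64.0, and Plec, the plakin plectin, 123 and 144 against 90.8 and 121. Cell by cell, the list summed to a median of 10.5 and 10.4 UMIs per 10000 in members and 20.9 and 24.8 in the others.

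**Figure D2:**
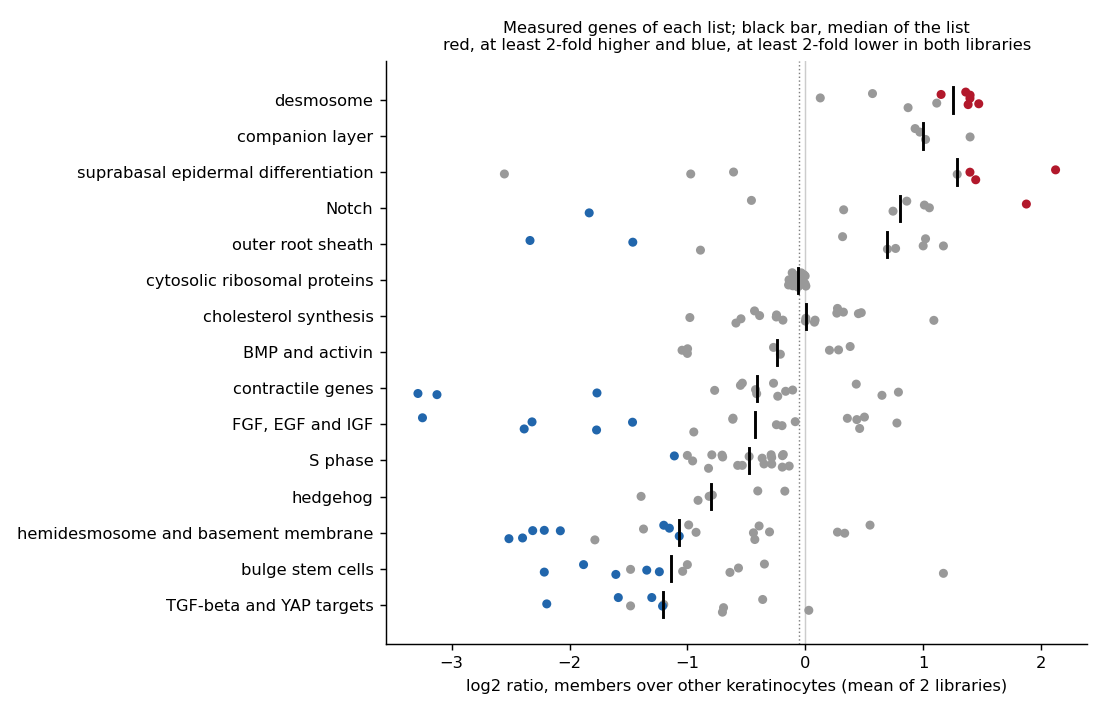
Mean log2 ratio over 2 libraries of members over other keratinocytes for each measured gene of 15 lists, with the list median as a black bar and the median of all measured genes (-0.05) as a dotted line. Red points are at least 2-fold higher in both libraries and blue points at least 2-fold lower; desmosome genes lie mostly to the right and basement membrane, bulge, and TGF-beta and YAP target genes mostly to the left.

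Bulge stem cell genes were lower, although the cells had been sorted for CD34. Of 12 measured bulge genes 5 were lower, beside 3.52% of all measured genes, none was higher, and the median log2 ratio was -1.14. Cd34 itself had 25.9 and 24.2 CPM in members against 90 and 99.8 in the others (-1.88 ± 0.17). After thinning to 5000 UMIs a transcript of Cd34 was found in 10.3% and 9.79% of members and 32.6% and 34.4% of the others. Unthinned, the shares were 22.3% and 20.8% against 50.6% and 48.6%, and in non-keratinocytes, which include cells with CD34 of their own, 63.6% and 50%. The sort read surface protein, which these libraries do not measure.

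Krt15, the keratin of bulge basal cells, was at 1432 and 2304 CPM in members and 3587 and 5937 in the others, 2.51 and 2.58 times lower. It varied widely among members. The 10th and 90th percentiles were 0 and 40.3 UMIs per 10000 in replicate 1 and 0.90 and 54.6 in replicate 2. Lgr5, the R-spondin receptor of follicle stem cells, was at 34.8 and 45.5 CPM against 116 and 131, and it was found in 25.9% and 31.7% of members. After thinning these shares were 13.7% and 18.6%, beside 0 of 64 and 2.08% of non-keratinocytes. The secreted protein gene Dkk3 was lower too, at 10.7 and 14.9 against 26.3 and 36.9. The LIM-homeobox factor Lhx2 had 139 and 135 CPM against 192 and 215, and Sox9, also on the bulge list, lay in the opposite direction as given above.

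Genes typical of smooth muscle contraction were among the lowest in the members. Tagln, the actin-binding protein transgelin, stood at 198 and 139 CPM in members and 1706 and 1556 in the others, 8.59 and 11.2 times lower. Acta2, smooth muscle actin, was at 103 and 56.2 against 806 and 562. Myl9, a regulatory myosin light chain, was at 77.4 and 68.3 against 308 and 202. In none of these did the groups overlap, though these genes are named for their large ratios. They were the only 3 genes called of 15 measured contractile genes, beside 3.52% lower of all measured genes, and the median of the list was -0.41. Tpm1, Actg1 and Actb had mean log2 ratios of -0.11, -0.23 and -0.41.

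Growth factor pathways contributed mainly lower genes, to be read beside the 3.52% lower of all measured genes. Of 10 measured TGF-beta and YAP targets and components 4 were lower, among them Tgfbi, an extracellular matrix protein, Cyr61, a matricellular YAP target, and Tgfbr2, the type II receptor. Tgfbi had 6.82 and 13 CPM in members against 23.2 and 93.8. Of 16 measured FGF, EGF and IGF genes 5 were lower, among them the IGF-binding proteins Igfbp4 (63.3 and 59.0 against 334 and 286) and Igfbp5 (12.4 and 15.3 against 96.9 and 59.9). Fgf5, the ligand that ends anagen, was at 12.9 and 15.3 against 50.9 and 50. Igfbp3 and the feedback inhibitor gene Spry1 were the others called lower. For each gene named here as lower the member values were below both values of the others, which largely follows from the 2-fold call. The receptors Fgfr3, Egfr and Igf1r were not called, with mean log2 ratios of 0.44, -0.61 and -0.24.

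Notch genes moved in both directions. The receptor gene Notch3 was higher, at 34.1 and 37.2 CPM against 12.1 and 6.59 (1.88 ± 0.64), and it was found in 30.8% and 32.7% of members, 10.8% and 6.54% of the others and 13% of non-keratinocytes in each library. After thinning, 13.5% and 19.6% of members and 5.22% and 3.33% of the others carried it. The ligand gene Jag2 was lower, at 20 and 17.7 against 77.4 and 62.6. Notch1 had 236 and 185 CPM against 151 and 66.4 and was not called. These were 1 higher and 1 lower of 8 measured Notch genes, whose median was 0.80, beside 1.71% higher and 3.52% lower of all measured genes. Notch3 is also 1 of the 5 genes of the vascular muscle and pericyte list, which summed to 34.7 and 38.1 CPM in members and to 14.5 and 12.9 in the others. Of that list Rgs5 and Des were at 0 UMIs in the members of both libraries, and the part of such cells in the Notch3 value was not tested. BMP and activin genes gave no call among 8 measured, hedgehog genes none among 6, and WNT genes 2 lower among 8, which were Lgr5 and Dkk3. The hedgehog receptor gene Ptch1 had 29.0 and 35.8 CPM against 57.7 and 128.

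Few relatives of the marker genes accompanied them, and the calls below stand beside 1.71% higher and 3.52% lower of all measured genes. The PTHrP receptor gene Pth1r had 2 UMIs in the members of each library and 36 and 48 in the others. None of the 5 measured genes of PTHrP signalling and processing was called, and Furin, which cleaves precursors such as that of PTHrP, had 52.8 and 37.6 CPM against 68.6 and 49.9. Of 10 measured protease inhibitor genes 1 was lower, Serpinb6a, at 44.1 and 56.2 against 120 and 206. Wfdc3, of the same fold family as Wfdc18, had 21.6 and 18.1 CPM against 7.73 and 9.64 and was not called. Among 6 measured genes of RAB27-dependent secretion, in which Sytl2 acts, the myosin gene Myo5a was higher, at 94.9 and 66.4 against 46.6 and 24.5. No other doublecortin gene reached the level minimum.

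Housekeeping, metabolic and stress groups lay near the median of all genes. With 1.71% of all measured genes higher and 3.52% lower, a single call in such a list is not read as a result about the list. None of 31 cytosolic ribosomal protein genes and none of 18 cholesterol synthesis genes was called, with median log2 ratios of -0.06 and 0.00. Of 15 measured glycolysis and hypoxia genes 1 was higher, Ndrg1, at 246 and 187 CPM against 120 and 88.0. Of 18 immediate early and AP-1 genes, which respond to tissue handling, 1 was lower, the nuclear receptor gene Nr4a1, and Fos had 2371 and 2954 against 3923 and 3628. The S phase list had 1 lower gene of 19, Tyms, thymidylate synthase, with 45.8 and 60.4 against 98.0 and 134. Against the narrower, non-mitotic reference Tyms had a mean log2 ratio of -0.11 and no S phase gene was called. Of 17 measured S100 and annexin genes 1 was higher, S100a3 (28.1 and 37.6 against 13.3 and 11.6), and 1 lower, S100a4 (5.29 and 1.39 against 16.5 and 33.4). Of 16 measured follicle transcription factors none was called, and Trp63, the master factor of stratified epithelium, had 335 and 275 CPM against 280 and 221.

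The genes with the most negative ratios changed with the cells the reference held. Of the 10 lowest, Col1a1, Col1a2, Col3a1 and Dcn are fibroblast genes and Nusap1, Ccnb2, Tpx2, Cdca3 and Kif22 are mitotic genes, with mean log2 ratios from -4.90 to -3.33. The tenth, the metallothionein gene Mt2, had 28.1 and 18.6 CPM in members against 197 and 355. Against the narrower reference the fibroblast genes no longer reached the level minimum and the 5 mitotic genes had ratios between -0.47 and 0.02. There the 10 lowest genes were Tagln (-3.58), the Ras-like Rasl11a, Igfbp3, Ggt1, the creatine kinase gene Ckb, the water channel gene Aqp3, the kinase gene Dapk2, Acta2, the chemokine scavenger receptor gene Ackr3 and Thy1 (-3.05). Mt2 remained low, at -2.75. The ratios of Sbsn, Dsp, Notch3 and Rnf223 were 2.14, 1.36, 2.08 and 3.07.

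Levels varied with the number of marker genes detected, among keratinocytes with at most 1 mitotic gene. The cells just outside the threshold, with 2 marker genes, numbered 381 and 153, and those just inside, with 3, numbered 310 and 113. Median depth was alike on the 2 sides, 9351 and 8939 UMIs outside and 9417.5 and 8868 inside. Sbsn was at 697 and 743 CPM with 2 marker genes and 1071 and 1176 with 3. Col17a1 was at 135 and 181 with 2 and 61.0 and 43.3 with 3. Tagln was at 849 and 1322, then 303 and 193. For Sbsn the cells just outside thus lay between the members and the cells with no marker gene, which had 157 and 272 CPM. At 5 marker genes Sbsn reached 1814 and 2244 CPM and Krt14 10937 and 11192, but the 87 and 30 cells were deeper in replicate 1, with medians of 13551 and 10307 UMIs. The part of depth in this trend was not tested.

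**Figure D3:**
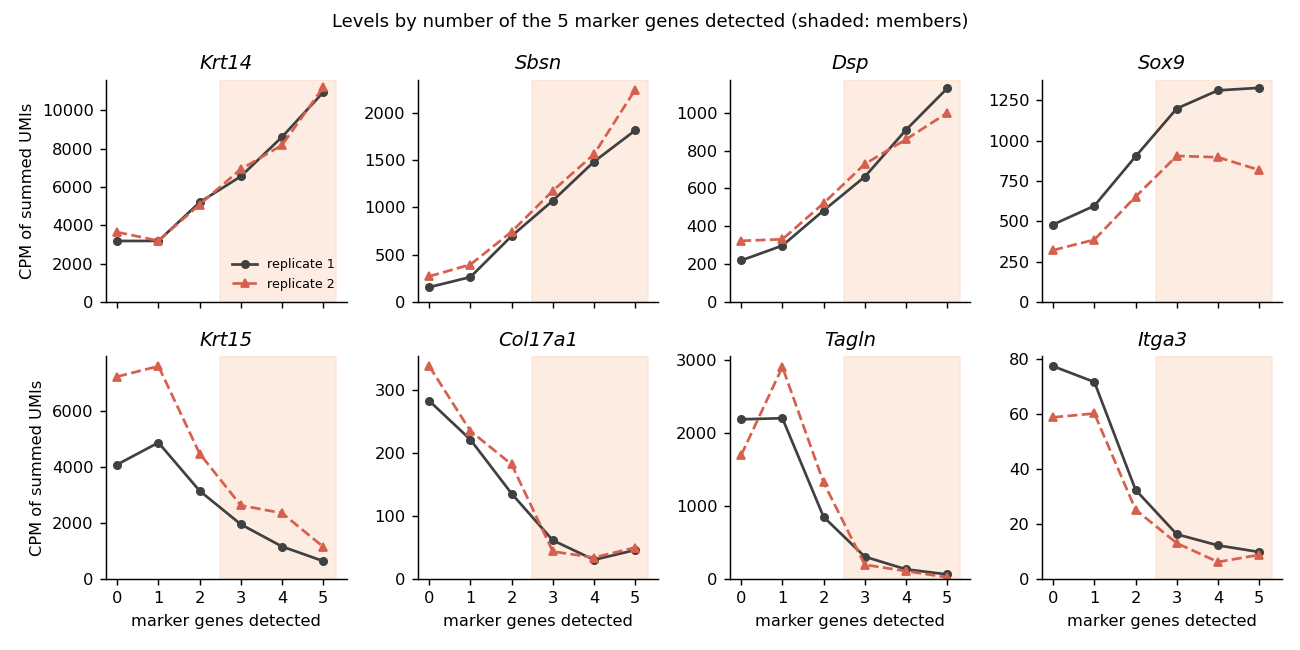
CPM of summed UMIs of 8 genes (linear axes from 0) in non-mitotic keratinocytes with 0 to 5 of the marker genes detected, with a solid line for replicate 1, a dashed line for replicate 2 and shading over the members. From 0 to 5 marker genes Krt14, Sbsn and Dsp climb to their highest level, and Krt15, Col17a1, Tagln and Itga3 are lower with 3 or more marker genes than with 0 to 2.

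Members were placed beside 3 other groups of keratinocytes, each also chosen by its transcripts. Cells that met the marker rule but carried at least 2 mitotic genes numbered 256 and 75. Their levels lay between the members and all other keratinocytes for Dsp (654 and 561 CPM) and Sbsn (837 and 685), and Col17a1 was at 21.7 and 42.6, against 47.0 and 41.3 in members. Non-mitotic cells with at least 2 of Edn2, Dio3 and Cpxm1 numbered 771 and 605 and lay at the opposite end. There Tagln was at 3197 and 3935 CPM, Sbsn at 94.6 and 85.6 and Dsp at 209 and 245.

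Cells with both Krt24 and Grem1, genes of the outer bulge, numbered 6 and 111, so the values of replicate 1 rest on few cells. Col17a1 was at 494 and 851 CPM and Krt15 at 10953 and 24825, but Sbsn was at 478 and 1063 and Dsp at 370 and 697. Sbsn and Dsp were therefore above the level of the Edn2, Dio3 and Cpxm1 cells in both of these groups. The median desmosome sum per cell was 38.3 and 39.2 UMIs per 10000 in the mitotic marker cells, 16.3 and 17.3 in the Edn2, Dio3 and Cpxm1 cells and 27.4 and 34.5 in the Krt24 and Grem1 cells. For the basement membrane list these medians were 9.1 and 10.2, 24.2 and 26.9, and 23.8 and 32.7.

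**Figure D4:**
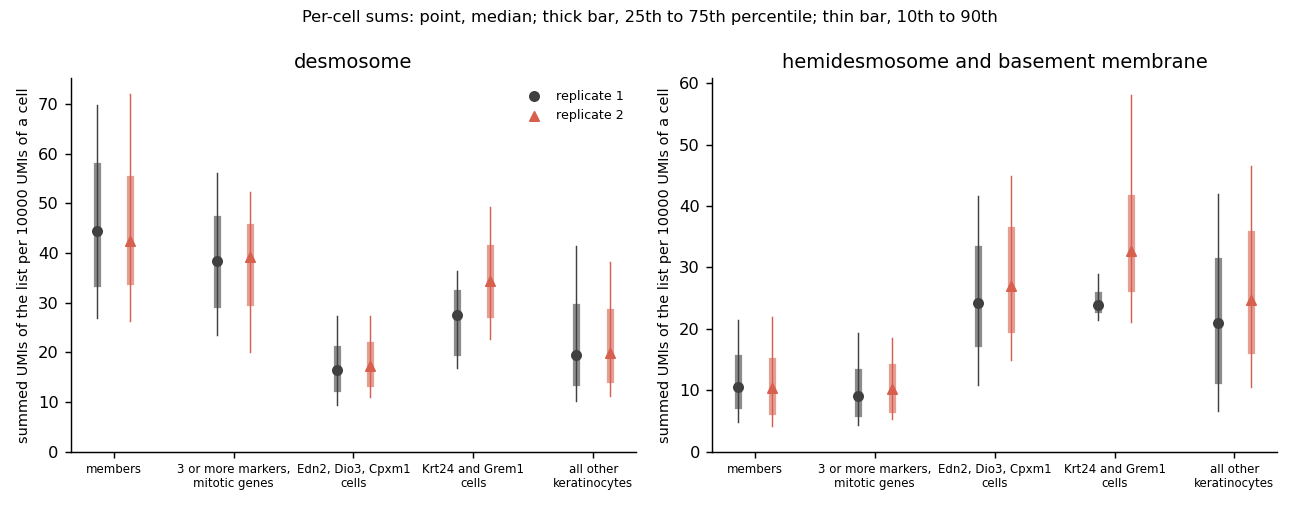
Summed UMIs per 10000 UMIs of a cell for the desmosome list (left) and the hemidesmosome and basement membrane list (right) in 5 groups of keratinocytes, replicate 1 as circles and replicate 2 as triangles; points are medians, thick bars span the 25th to 75th and thin bars the 10th to 90th percentile. Members have desmosome medians of 44.4 and 42.4 and basement membrane medians of 10.5 and 10.4, and the marker cells with mitotic genes have 38.3 and 39.2, and 9.1 and 10.2.

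Members varied among themselves, and the spread per cell is given here for 4 genes. Pthlh, a gene of the rule, ran per cell from 1.03 UMIs per 10000 at the 10th percentile to 41.2 at the 90th in replicate 1 and from 1.19 to 24.4 in replicate 2. Krt17 ran from 77.1 to 191 and from 61.3 to 173. Sox9 ran from 3.21 to 24.7 and from 2.38 to 18.0. Sbsn ran from 2.82 to 30.7 and from 3.44 to 30.9, and its 10th percentile lay above the median of the other keratinocytes, 0.95 and 0.96, in both libraries. No single cell held more than 2.29% of the Sbsn UMIs or 2.63% of the Dsp UMIs of the members.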

How the data were processed

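Both libraries were deposited as 10x matrices of UMI counts per gene and barcode. The submitters' processing notes name Cell Ranger 3.1.0, Seurat 3.1 and mm10, and no source used here names the gene models. The deposited counts were used unnormalized: barcodes were filtered, the member rule was applied, and UMIs were summed within a library and scaled to CPM (Python 3.11.15, numpy 2.4.6, scipy 1.17.1). The members, gene lists and tests were chosen with earlier results of these data known. Named genes are the 15 higher and 10 lower genes with the largest mean log2 ratio, mitochondrial, Xist, Tsix and Y-linked genes left out, and of each list the 4 measured genes with the largest ratio and those that state what it holds. The 7195 measured genes average at least 10 CPM over both groups in each library. Shares have exact 95% Clopper-Pearson intervals, for counting error only. The limits given for a count of 0 are instead 3 divided by the number of cells, which is below the upper end of those intervals. Doublets were left in: Scrublet's automatic threshold called 0 in each library, so an alternative drops the 348 and 206 highest scores, 42 and 14 of them members. edgeR 4.0.16 gave TMM factors for another alternative. The calling procedure was tested on simulated data with counting error only and planted changes of known size. Such data hold no spread between cells and no selection of members. They cannot show errors from that selection or from a few cells that hold most UMIs of a gene. No comparison between conditions was possible with 1 group.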

Additional observations from a re-analysis of the deposited data

How the results depend on the processing

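Of 73 called genes among 138 named ones, 1384 of 1387 values under 19 alternative settings kept their sign, and 17 were under 0.5 in size. Part of this was fixed in advance. A changed level minimum or ratio cutoff leaves the ratio as it is. A changed pseudocount, or leaving out 1 library, cannot turn the sign of a called gene. The exceptions in sign were Tpx2, at 0.0254 against a reference with at most 1 mitotic gene and 0.0179 against the narrower reference, and Col3a1, at 0.0457 against the narrower reference; these references hold few of the mitotic cells and fibroblasts that carry those genes. With 2 marker genes enough for membership, the mean share was 18.8% and 152 genes were lower, and with 4 needed the share was 5.40%. A reference with no marker gene detected gave 222 higher genes. A level minimum of 50 CPM left 47 higher and 73 lower genes, and no minimum gave 202 and 596. A log2 ratio of 0.5 in place of 1 gave 469 and 685. Leaving out 1 library at a time, which asks for 2-fold in the other library only, gave 186 to 283 higher genes, 337 to 445 lower genes and a share of 6.76% to 15.9%. Thinning, stricter gene or mitochondrial limits, 4 marker genes, doublet removal, TMM scaling, per-cell weighting and the pseudocounts kept both counts within 1.5 times. TMM scaling moved the median log2 ratio of all genes from -0.051 to -0.024. No paired analysis was possible because the series has 1 group of samples, so no groups share replicate numbers; members and other keratinocytes were compared within each library throughout. The level minimum of 10 CPM and 202 members in replicate 2 limit what is seen of low genes.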

Other observations

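Some of the barcodes that were not kept carried the marker genes. Among removed barcodes with at least 2 UMIs of Krt5 and Krt14 together, 172 of 1627 in replicate 1 and 13 of 1161 in replicate 2 carried at least 3 of the marker genes. Ly6d, a gene of the upper follicle list, stood at 90.3 CPM in the members of replicate 1 and 3.25 in those of replicate 2, against 36.6 and 81.8 in the other keratinocytes. In replicate 1, 4 cells held 614 of its 649 UMIs. Plet1, of the same list, was higher in the members of both libraries, at 483 and 226 CPM against 215 and 95.5. Of the 7 measured genes of the list 1 was called higher, Plet1, and 1 lower, Krt79, with a mean log2 ratio of -1.77. The median of the list was -0.52, and over all measured genes 1.71% were higher and 3.52% lower. Mgst1, on the sebaceous list, had 689 and 723 CPM against 346 and 169, while Cidea had 0.418 and 0.465 CPM and Pparg none in the members. Klf5, a Krüppel-like factor of epithelial cells, had 108 and 71.5 CPM against 33.1 and 47.4, with ratios on opposite sides of 2-fold in the libraries.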
